A study of Mus musculus with 18 samples.

Results

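The exon bins described here are inner stretches of well-covered genes that carried almost none of the gene's reads in control mice. An exon bin is a stretch of a flattened annotation in which every boundary of an annotated exon starts a new, numbered bin. The bins were chosen by their measured shares in control libraries. Genes qualified when they had at least 10 bins and a mean of at least 2000 bin counts per library over the 4 control vector libraries. A bin qualified when it was neither the first nor the last of its gene, held on average less than 0.5% of the gene's bin counts in those 4 libraries, and reached 20 counts summed over the 9 libraries of the overexpression experiment. This left 5224 of 355320 bins, called rare bins below, in 1109 of the 1466 genes that met the floors. A further 5231 inner bins of these genes were under the share but also under the count floor, and 27522 inner bins of the genes with a rare bin were not rare.

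The libraries hold RNA obtained by TRAP (translating ribosome affinity purification, in which mRNA is pulled down together with tagged ribosomes) from layer II neurons of the mouse entorhinal cortex, with both cortices of a mouse pooled into 1 library. A control vector was given to 4 mice and a Ptbp1 vector to 5 in the overexpression experiment. A scrambled shRNA vector was given to 5 mice and a Ptbp1 shRNA vector to 4 in the silencing experiment. All vectors carried mCherry. The authors excluded 1 control mouse and 1 Ptbp1 shRNA mouse in which no mCherry read was found. The tissue label of each library reads hippocampus, while title and design name the entorhinal cortex. The sources used here do not give the driver of the ribosome tag or the strain, age and sex of the mice.

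PTBP1, polypyrimidine tract binding protein 1, binds CU-rich stretches of pre-mRNA, and many exons that it touches are skipped, while others are included more. Neurons hold PTBP1 low and use its paralog PTBP2, and this exchange sets a neuronal splicing programme in which former PTBP1-repressed exons enter mRNA. An inner bin can carry few reads for several reasons that the annotation can show: an alternative exon that these cells seldom use, a few bases between neighbouring splice sites, an intron retained in an annotated transcript, or an upstream first exon.

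The sequences of 6 rare bins are shown because these are the coding bins, by GENCODE, that passed the test on Ptbp1 overexpression given with the results. All are mm10 and are written 5′ to 3′ in the direction of the gene, as read from GENCODE transcripts. In the first 4 the capitals mark TCTT and CTCTCT, short CU-rich motifs of the kind PTBP1 binds, searched in the sense direction with their reverse complements AAGA and AGAGAG counted beside them. The bins are Klc1 027 (chr12:111795548-111795678, plus strand), Klc1 029 (chr12:111806008-111806074, plus strand), Atp6v1h 007 (chr1:5101070-5101123, plus strand) and Erc1 006 (chr6:119713680-119713811, minus strand).
Klc1 027: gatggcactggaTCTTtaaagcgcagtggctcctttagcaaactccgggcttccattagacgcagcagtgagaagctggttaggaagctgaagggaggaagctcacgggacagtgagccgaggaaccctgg
Klc1 029: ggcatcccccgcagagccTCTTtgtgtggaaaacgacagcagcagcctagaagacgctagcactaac
Atp6v1h 007: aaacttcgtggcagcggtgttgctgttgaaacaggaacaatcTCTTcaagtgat
Erc1 006: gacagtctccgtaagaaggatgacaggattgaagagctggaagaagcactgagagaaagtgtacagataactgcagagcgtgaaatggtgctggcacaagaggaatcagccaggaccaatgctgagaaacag
TCTT stands once in Klc1 027, Klc1 029 and Atp6v1h 007 and is not in Erc1 006. Of inner bins of the same genes within 10% of the length, 39.3% hold TCTT for Klc1 027, 23.2% for Klc1 029, 19.7% for Atp6v1h 007 and 40.2% for Erc1 006, so a match of this kind is common. AAGA stands 4 times in Erc1 006 and once in Klc1 029. CTCTCT is in none of the 4. Klc1 027 and 029 together have 198 bases, or 66 codons, Atp6v1h 007 has 54 bases, or 18 codons, and Erc1 006 has 132 bases, or 44 codons. Introns could not be read, so the stretches beside the exons, where much PTBP1 binding lies, were not searched.

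The rare bin of Camk2b, 022 (chr11:5982759-5982761, minus strand), has 3 coding bases at the 5′ end of an exon. It is shown in capitals within the spliced transcript, with the last 30 bases of the preceding exon and the 38 bases of bin 021.
Camk2b 022: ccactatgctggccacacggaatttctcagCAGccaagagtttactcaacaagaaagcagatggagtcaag
The rare bin of Tpm1, 021 (chr9:67032466-67032541, minus strand), has the same length, 76 bases, as the much used bin 019 (chr9:67031951-67032026), and the 2 are shown with the 33 positions at which they differ in capitals.
Tpm1 021: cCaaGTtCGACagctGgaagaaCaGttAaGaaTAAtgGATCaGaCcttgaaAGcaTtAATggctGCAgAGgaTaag
Tpm1 019: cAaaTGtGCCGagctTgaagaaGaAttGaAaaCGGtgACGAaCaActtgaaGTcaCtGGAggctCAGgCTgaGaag
The other 43 positions, 56.6%, are equal.

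Over whole libraries, bin counts summed to 13199116 to 28462193 in the overexpression experiment and to 24364560 to 32699039 in the silencing experiment. Ptbp1 itself, measured at gene level in CPM (gene counts relative to the scaled library size), was at 9.96 to 17.2 in the control libraries and at 118 to 158 in the overexpression libraries, and its paralog Ptbp2 was at 107 to 113 and at 41 to 55.1 CPM. In the silencing experiment Ptbp1 was at 0.349 to 9.11 CPM in the scrambled libraries and at 0.101 to 13.1 CPM in the libraries labelled Ptbp1 shRNA, so the label was not matched by a lower level, and Ptbp1 shRNA libraries means below the libraries with that label. In such pooled tissue RNA, fewer cells of a type and less RNA per cell cannot be told apart. The 6 excitatory neuron markers summed to 2997 to 3766 CPM in control, 2505 to 3494 in overexpression, 3088 to 4471 in scrambled and 1543 to 2675 CPM in Ptbp1 shRNA libraries, and none was at 0. The 12 markers of other cell types summed to 245 to 321, 237 to 395, 227 to 276 and 167 to 286 CPM in the same order, with C1qa of microglia and Cldn5 of vessels at 0 in every silencing library.

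Rare bins differed from the other inner bins of their genes in what the annotation has there. Coordinates could be given to 3833 rare bins (73.4%) and 20393 other inner bins. Of the rare bins, 31.2% lay wholly in 5′ UTRs, against 7.76% of the others. A further 19.2% lay in a transcript annotated as a retained intron and in none annotated as coding, against 6.28%. Wholly coding bins made up 27.3% of the rare bins and 69.3% of the others, while 3′ UTR bins made up 4.83% of both. The plot of annotated types shows these shares side by side.

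**Figure D1:**
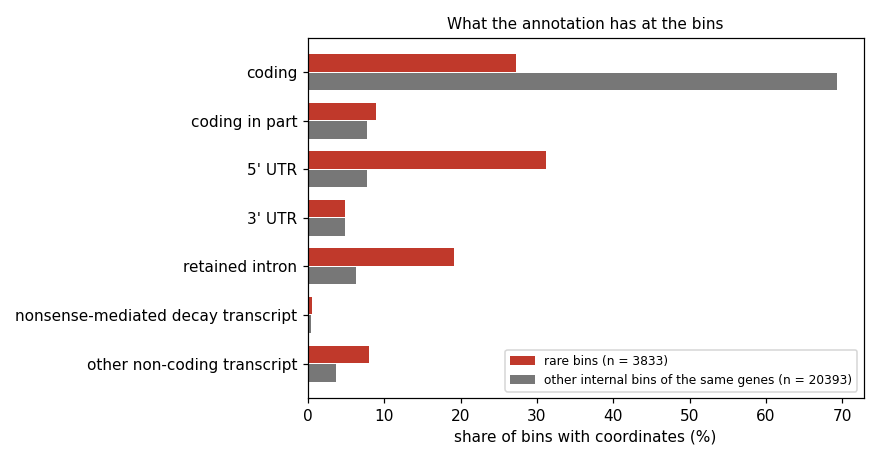
Share of rare bins (red) and of the other inner bins of the same genes (grey) in each annotated type, in percent of the bins with coordinates. Coding bins are 27.3% of the rare and 69.3% of the other bins, and 5′ UTR and retained intron bins take up most of the difference.

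The rare bins were also shorter and lay earlier in the gene. Their median length was 85 bases against 106, and 19.1% of them had 15 bases or fewer, against 7.44%. By order of transcription, 50.6% stood in the first of 3 equal stretches of their gene's bins, against 28.7% of the others. Internal exons of a transcript that stand apart from every other bin made up 14.4% of the rare bins and 38.1% of the others. End exons that stand apart made up a further 3.44% and 3.0%. A length that is a multiple of 3 was found in 36.7% of the rare and 37.2% of the other bins. Among the separate internal exons it was found in 49.7% of the rare and 40.7% of the others. At least 1 coding transcript that spans the place leaves out 56.2% of the rare bins and 23.7% of the others. Bins of a gene share its transcripts, so these shares are descriptions without a test.

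Many rare bins came from few genes. The median gene had 3, and 214 genes had 1, while Kalrn, an exchange factor of dendritic spines, had 45 among its 101 bins. Ttc3, a ubiquitin ligase, had 41 of 101 and Ryr2, a calcium release channel, 34 of 107. Within the bins, TCTT occurred 6.33 times per 1000 bases in rare bins and 5.28 times in the others, and CTCTCT 0.725 and 0.533 times. The reverse complement of TCTT was less frequent in the rare bins (5.74 against 7.43 per 1000 bases) and that of CTCTCT hardly differed (0.643 against 0.609). The rare bins also held less coding sequence, as given above, and its part in these frequencies was not tested.

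At the limit of the rule, bins inside and outside it carried like shares. Just inside was bin 019 of Opcml, an opioid-binding cell adhesion gene, with 0.572, 0.515, 0.575 and 0.336% of the gene's bin counts in the 4 control libraries. Just outside were bin 037 of Pum2, a translational repressor, with 0.657, 0.472, 0.492 and 0.380%, and bin 018 of Arnt2, a transcription factor, with 0.505, 0.447, 0.470 and 0.580%. All 3 had a mean that rounds to 0.5%. Opcml 019 and Pum2 037 have 3 coding bases each at an exon's edge, as Camk2b 022 does, and Opcml 019 lies within an annotated gene of the other strand.

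On Ptbp1 overexpression some rare bins of Klc1, Camk2b, Snap91, Atp6v1h, Erc1, Tpm1, Sept6, Mical2 and Pkm had a higher share than in control libraries. Each bin was compared with the other bins of its gene, and a bin was called at an adjusted p under 0.05 (edgeR's diffSpliceDGE over all bins). Of 2330 rare bins that passed the filter on low counts, 11 were called, or 0.472%, all higher. Of all 117580 bins tested 40 were called, or 0.034%, 27 of them higher (0.023%) and 13 lower (0.0111%). At an unadjusted p under 0.05 were 72 rare bins, or 3.09%, beside 1.37% of all bins. Of the other inner bins of the same genes, 5 of 22659 were called. The control libraries chose the rare bins for a low share, and 574 of those tested passed the filter in at least 4 overexpression libraries but not in the 4 control libraries, against 59 the other way round. Of the 11 called bins, 9 passed the filter in fewer than 4 control libraries, so nothing is read from the direction or from the count. The remaining 2894 rare bins (55.4%) had too few counts to be tested.

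All 5 overexpression libraries lay above all 4 control libraries in 62 rare bins, 2.66% of those tested, beside 0.843% of all bins, and below them in 9, or 0.386%, beside 0.832%. The 62 bins came from 51 genes, and by annotation 25 were coding, 9 in 5′ UTRs, 5 in 3′ UTRs, 5 coding in part, 3 in retained introns and 1 in another non-coding transcript, while 14 had no coordinates. By class, 6 of the 644 tested coding bins and 2 of the 101 tested 3′ UTR bins were called, and none of the 487 tested 5′ UTR or 188 tested retained intron bins was. The other 3 called bins had no coordinates.

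**Figure D2:**
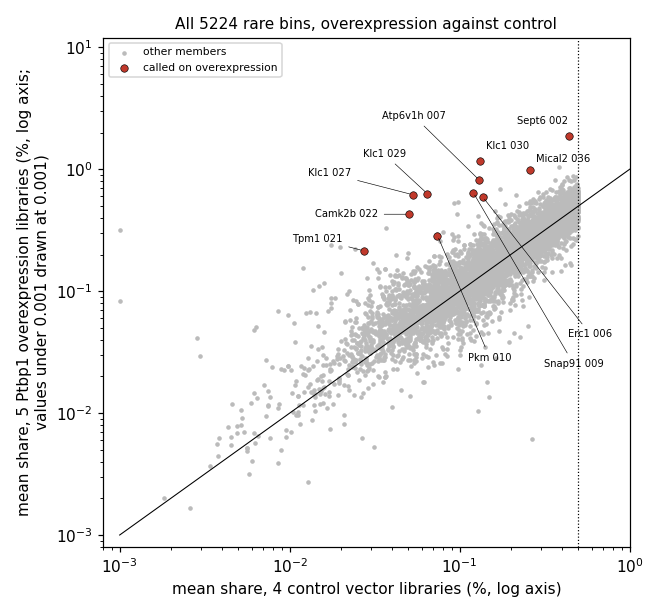
Mean share of each of the 5224 rare bins in the 4 control vector libraries (x axis) and the 5 Ptbp1 overexpression libraries (y axis), in percent of the gene's bin counts on log axes. The line marks equal shares and the dotted line the 0.5% limit of the rule, and the 11 called bins (red) lie above the cloud, with Sept6 002 highest at 1.87%.

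Klc1, which encodes a kinesin light chain that joins cargo to the kinesin motor, held 3 of the 11 called bins. They lie downstream of bin 024, the 3′ UTR with the largest share of the Klc1 counts, and make up an alternative end of the transcript: 131 coding bases (027), 67 coding bases (029) and 397 bases of 3′ UTR (030, chr12:111806315-111806711). Klc1 027 held 0.0642, 0.0417, 0.0509 and 0.0550% of the gene's bin counts in the control libraries and 0.852, 0.655, 0.642, 0.419 and 0.527% in the overexpression libraries. Even the lowest overexpression library was several times above the highest control, and the means were 0.0530% and 0.619%, 11.7-fold apart.

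Klc1 029 held 0.134, 0.0358, 0.0436 and 0.0440% in control and 0.803, 0.617, 0.682, 0.515 and 0.549% in overexpression libraries. Klc1 030 held 0.263, 0.0537, 0.0872 and 0.121% in control and 1.34, 1.25, 1.31, 0.995 and 0.935% in overexpression libraries. The control replicate 1 was highest of its group in all 3 bins, and still below each overexpression library. The overexpression means were 9.83-fold higher for 029 and 8.88-fold higher for 030, with 6 to 45 counts per control library and 75 to 297 per overexpression library over both bins. Bin 024 held 36.4% ± 3.79 in control and 34.5% ± 0.972 in overexpression libraries (SD, n = 4 and 5), so the alternative end remained a minor one. Klc1 029 and 030 lie within Xrcc3, a DNA repair gene of the other strand, though in none of its exons, and the sources used here do not say if counting used the strand. The profile of Klc1 by bin shows both ends of the transcript.

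**Figure D3:**
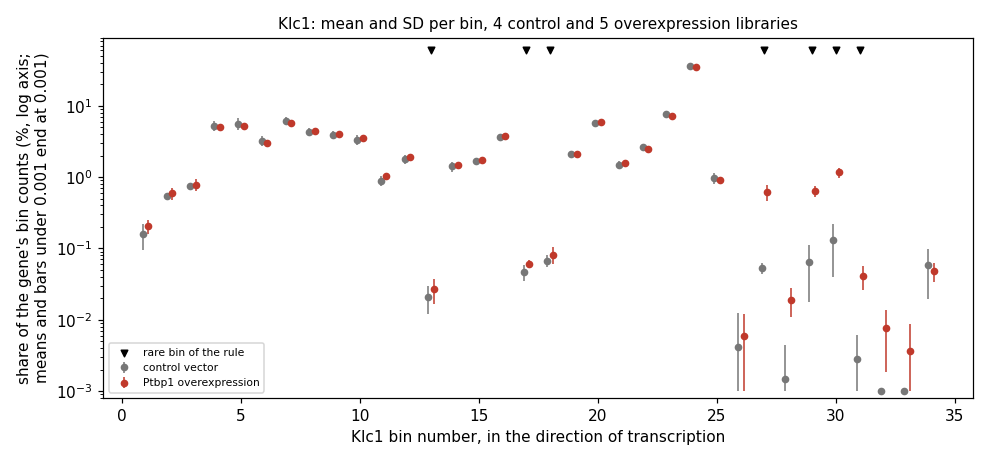
Share of the Klc1 bin counts in each of its 34 bins, in the direction of transcription, as mean and SD over the 4 control (grey) and 5 overexpression (red) libraries on a log axis, with triangles over the rare bins. The groups lie together up to bin 025 and apart from 027 to 031, where the overexpression means are 0.619, 0.0192, 0.633, 1.16 and 0.0416% and the control means 0.0530, 0.00146, 0.0644, 0.131 and 0.00283%.

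Camk2b encodes the beta subunit of the calcium/calmodulin-dependent kinase of synapses. Its 3-base bin 022 held 0.0692, 0.0441, 0.0539 and 0.0333% in control and 0.459, 0.484, 0.466, 0.339 and 0.393% in overexpression libraries, an 8.54-fold difference of means. The groups were far apart, with 6 to 15 counts in a control library and 66 to 147 in an overexpression library. Reads counted in so short a bin also cross its neighbours, since the 3 bases are an extension of bin 021, which held 2.26% ± 0.189 in control and 2.10% ± 0.232 in overexpression libraries. Of the 10 coding transcripts that span the place, 5 do not hold these bases.

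Among genes of vesicles and the synapse, Snap91, the gene of the clathrin adaptor AP180, had a called bin without coordinates. Snap91 009 held 0.0802, 0.136, 0.135 and 0.130% in control and 0.606, 0.520, 0.699, 0.647 and 0.751% in overexpression libraries, 5.36-fold apart in the means. Bins 008 and 010 on either side of it held 3.74% and 2.94% in control and 3.72% and 3.03% in overexpression libraries, so the neighbours were alike in both groups.

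Atp6v1h encodes subunit H of the vacuolar proton pump, which acidifies vesicles and lysosomes. Its 54-base exon 007 held 0, 0.132, 0.165 and 0.225% in control and 0.504, 1.07, 1.09, 0.677 and 0.746% in overexpression libraries, with means 6.27-fold apart. The groups did not overlap, but the counts were small, 0 to 8 in a control library and 22 to 44 in an overexpression library, and the 0 allows a share of up to 0.0997% (3 counts, for counting error only).

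Erc1 encodes a scaffold of the presynaptic active zone. Its 132-base exon 006 held 0.0508, 0.0493, 0.226 and 0.220% in control and 0.722, 0.720, 0.792, 0.289 and 0.449% in overexpression libraries. The groups did not overlap and the means were 4.35-fold apart, on 2 to 8 counts in a control library. Its call was lost without control replicate 1 (adjusted p = 0.17 in edgeR's diffSpliceDGE, log2 relative usage 1.87 instead of 2.16) and without control replicate 2 (adjusted p = 0.209, log2 1.87), the libraries with the lowest shares.

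Of genes of the actin and septin cytoskeleton, Tpm1, the tropomyosin 1 gene, is a textbook case of exons used in place of one another. Its rare bin 021, the 76-base sequence given above, held 0.0637, 0.00596, 0 and 0.0400% in control and 0.286, 0.199, 0.270, 0.148 and 0.167% in overexpression libraries. The means were 7.82-fold apart, but the counts were at most 10 in a control library. Bin 019 of equal length held 9.35% ± 0.50 in control and 8.64% ± 0.554 in overexpression libraries, so 021 remained a small addition beside it.

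Sept6, which encodes a septin, a GTP-binding protein of filaments, had a called bin in an alternative 3′ UTR (002, chrX:36913446-36915030, minus strand). It held 0.613, 0.348, 0.471 and 0.320% in control and 2.70, 1.06, 2.24, 1.40 and 1.93% in overexpression libraries, 4.26-fold apart in the means. The 3′ UTR bin 004 of the same gene, with 1.08% ± 0.200 in control libraries not a rare bin, was called as well and held 3.22% ± 0.927 on overexpression. The much used end, bin 001, held 23.3% and 21.2%.

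Mical2 encodes a monooxygenase that oxidises actin, and its called bin 036 has no coordinates. It held 0.184, 0.286, 0.151 and 0.419% in control and 1.35, 0.603, 1.13, 0.779 and 1.11% in overexpression libraries. The highest control library and the lowest overexpression library were close, and the means were 3.83-fold apart.

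Pkm encodes pyruvate kinase of muscle and most other tissues, whose choice between a pair of mutually exclusive exons is a textbook target of PTBP1. Bin 010, which could not be matched to either exon for lack of coordinates, held 0.103, 0.0449, 0.0594 and 0.0894% in control and 0.341, 0.332, 0.254, 0.243 and 0.260% in overexpression libraries, 3.86-fold apart. Bins 009 and 011 on either side held 15.2% and 16.8% in control and 14.1% and 16.3% in overexpression libraries. The rare form thus stayed far below its neighbours in both groups.

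**Figure D4:**
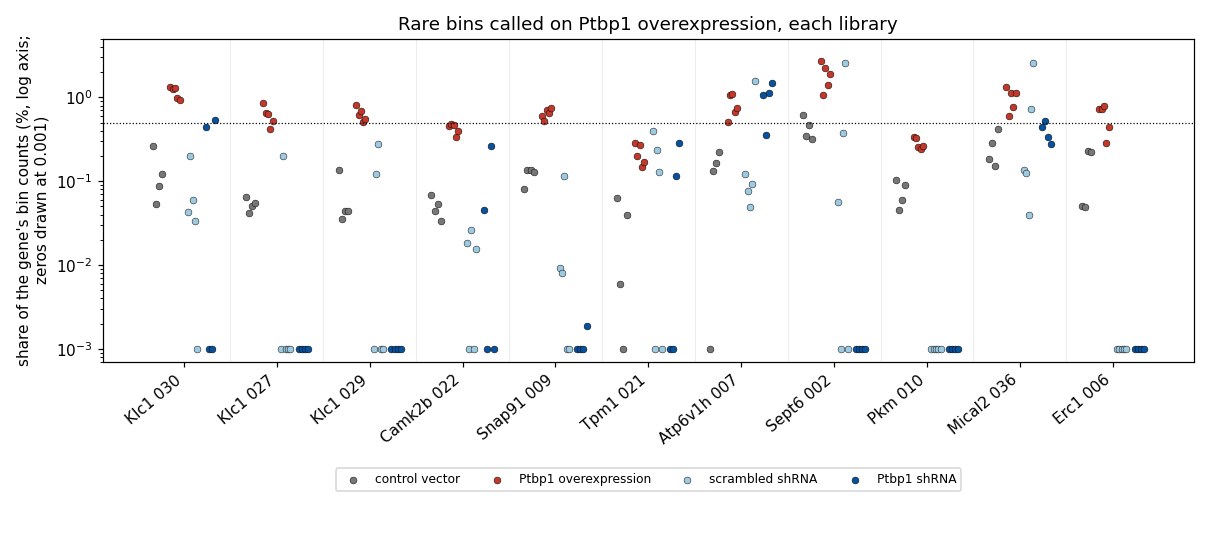
Share of the gene's bin counts in each of the 18 libraries for the 11 called bins, on a log axis with zeros drawn at 0.001 and a dotted line at the 0.5% limit. Overexpression libraries (red) lie above control libraries (grey) in every bin, while scrambled (light blue) and Ptbp1 shRNA (dark blue) libraries spread from 0 to 2.61%.

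The genes themselves did not pass the test of their level. None of the 9 genes with a called bin was called at gene level, in edgeR's quasi-likelihood test or DESeq2, beside 7 of 16480 genes, or 0.0425%, in edgeR, and 2 of the 9 had an unadjusted p under 0.05 with either tool. The smallest adjusted p among the 9 was 0.3 in edgeR and 0.0608 in DESeq2, so they are not shown to be unchanged. Klc1 was at 838 ± 63.7 CPM in control and 663 ± 42.9 CPM in overexpression libraries (SD, n = 4 and 5, log2 fold change -0.34, SE 0.08, adjusted p = 0.3 in edgeR). Its ranges, 744 to 881 and 602 to 707 CPM, did not overlap. Pkm was at 828 ± 43.4 and 822 ± 64.2 CPM, and Erc1 at 192 ± 7.33 and 191 ± 5.78 CPM. In the other genes the log2 fold change lay between -0.37 for Mical2 (SE 0.16) and 0.09 for Atp6v1h (SE 0.10).

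The gene lists used here were chosen with earlier results known, and differences between them were not tested. In 22 genes of a textbook list of PTBP1-regulated exons, 7 of 110 tested rare bins were called (beside 0.472% of all tested rare bins), those of Klc1, Camk2b, Snap91, Tpm1 and Pkm, with a median log2 relative usage of 0.12 beside 0.09 over all tested rare bins and 0.00 over all bins. In 27 microtubule and motor genes it was 3 of 108, all in Klc1, with a median of 0.02, and in 28 synapse genes 2 of 119, in Camk2b and Snap91, with a median of 0.14. None was called among 62 tested rare bins of 20 splicing factor genes (median 0.08, 1 with an unadjusted p under 0.05) or 37 of 11 ion channel genes (median -0.01, 0 with such a p). Dnm1 015, of a gene in the textbook list, was called in addition by limma's diffSplice, and by edgeR at a minimum count of 30 and without control replicate 2. Its mean share was 0.0703% in control and 0.159% in overexpression libraries.

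The mice of the silencing experiment played no part in the choice, and there the rare bins were mostly rare as well. In the scrambled libraries 4879 of 5224 (93.4%) had a mean share under 0.5%, in the Ptbp1 shRNA libraries 4812 (92.1%), and in the Ptbp1 overexpression libraries 4885 (93.5%). The median share was 0.0452% in scrambled and 0.0388% in Ptbp1 shRNA libraries, well below the 0.172% of control and 0.182% of overexpression libraries. Together the rare bins held 0.886 to 1.03% of the bin counts of their genes in control libraries, 1.02 to 1.05% in overexpression, 0.502 to 0.545% in scrambled and 0.485 to 0.745% in Ptbp1 shRNA libraries. The ranges of the 2 experiments did not overlap. The count floor of the rule used the overexpression experiment only, so bins without reads there were left out, and bins without reads in the silencing experiment were not. The experiments were also separate, so this difference cannot be told apart from the choice of bins or any other difference between them.

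By annotated class, rare bins in 5′ UTRs and retained introns were lower in the silencing libraries by larger factors than coding ones. The 5′ UTR bins held 0.166 to 0.200% of the bin counts in control and 0.194 to 0.212% in overexpression libraries, but 0.0498 to 0.0796% in scrambled and 0.0410 to 0.0714% in Ptbp1 shRNA libraries. Retained intron bins went the same way, with 0.0838 to 0.0899% in control and 0.0207 to 0.0273% in scrambled libraries, while coding bins held 0.216 to 0.302% and 0.134 to 0.182%. Rare 3′ UTR bins went the other way, with 0.0373 to 0.0453% in control and 0.0511 to 0.0617% in scrambled libraries. Bins that were not rare were not summed by class, so these shifts cannot be called particular to rare bins. In Klc1, bin 004, coding in part, had a mean of 5.28% in control and 2.76% in scrambled libraries. The 3′ UTR bin 024 of Klc1 had 36.4% and 49.9%. Not every such 3′ UTR bin was higher, as Camk2b 005 had 8.01% and 4.10%.

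Single rare bins were far less even between mice in the silencing experiment. The median coefficient of variation of a bin's share was 40.8% over the control and 37.9% over the overexpression libraries, but 133% over the scrambled and 131% over the Ptbp1 shRNA libraries. This was not particular to rare bins. In the fits of all tested bins the common coefficient of variation between libraries was 105% in silencing and 21.2% in overexpression. At 0 counts were 0.976 to 5.19% of the rare bins in a library of the overexpression experiment and 39.9 to 57.3% in a library of the silencing experiment. In 300 rare bins (5.74%) 1 scrambled library was at 0 while another was over 1%, against 1 rare bin in the control libraries. The median gene with a rare bin had 3030 to 4407 bin counts in a control library and 4391 to 6079 in a scrambled library. Single genes could go the other way, as Klc1 with 13754 to 18185 bin counts in a control and 4707 to 8907 in a scrambled library. The rule held the mean control share under 0.5% and asked for 20 counts over the overexpression experiment. It set no such limits on the silencing libraries, so the choice of bins fixed part of these contrasts. The size of that part and the part of depth were not tested.

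**Figure D5:**
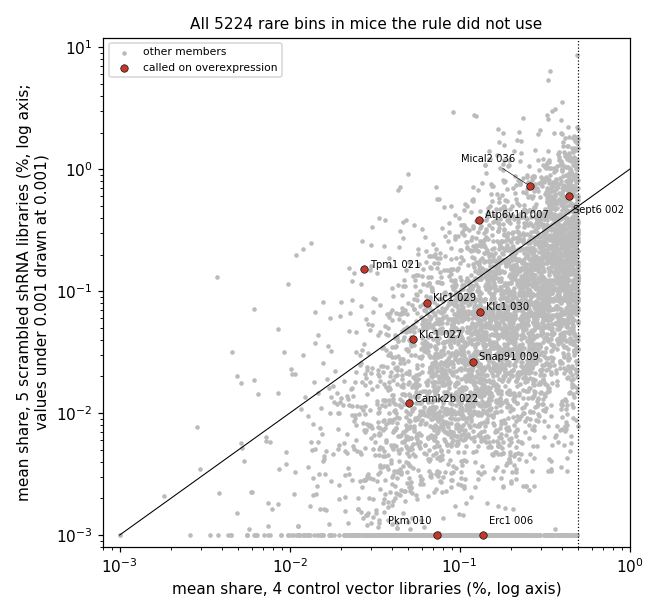
Mean share of each of the 5224 rare bins in the 4 control vector libraries (x axis) and the 5 scrambled shRNA libraries (y axis), in percent of the gene's bin counts on log axes, with means under 0.001 drawn at 0.001. Most bins lie under the line of equal shares and under the 0.5% limit (dotted), with Elp5 030 the highest at 8.68%.

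The 3 rare bins with the highest mean share in scrambled libraries owed it to some mice. Elp5 030, a 5′ UTR bin in the gene of an Elongator subunit (chr11:69981562-69981639), held 1.35, 0, 35.1, 0.296 and 6.63% in the scrambled libraries, where the gene had only 484 to 1765 bin counts. It overlaps an exon of Ctdnep1 on the other strand. Fez1 007, in the gene of a kinesin adaptor (chr9:36846788-36846861), held 1.30, 15.8, 8.53, 6.40 and 0.0361%, and Pmm1 009, in a phosphomannomutase gene, 0, 10.2, 6.88, 0.143 and 9.76%. Pmm1 had only 164 to 1398 bin counts in the scrambled libraries, with at most 32 in bin 009. The 0 of Elp5 030 allows a share of up to 0.573% and that of Pmm1 009 up to 0.984%. In the control libraries the same bins held at most 0.944, 0.538 and 0.399%.

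The silencing experiment also gave a test in libraries that the rule did not use, though the filter on low counts did use them. Of 1114 rare bins tested, 0 were called by edgeR's diffSpliceDGE, beside 1 of 83164 bins, or 0.0012%, and 43 had an unadjusted p under 0.05, or 3.86%, beside 1.96% of all bins. With limma's diffSplice 1 was called, and without the filter on low counts edgeR called 2. The median log2 relative usage was -0.02 in rare and in all bins. The 4 Ptbp1 shRNA libraries lay above all scrambled ones in 10 rare bins (0.898%, beside 0.646% of all bins) and below them in 14 (1.26%, beside 0.877%). Of the rare bins tested, 347 passed the filter in at least 4 scrambled libraries but not in the 4 Ptbp1 shRNA libraries. The other way round it was 49, so nothing is read from the direction or the median. None of the 5 gene lists had a called bin, with 12 to 67 rare bins tested in each. Excitatory markers were lower in the Ptbp1 shRNA libraries, as given above, and their part in these values was not tested.

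The 5 rare bins with the smallest p did not pass in edgeR, and 4 of them are described. Sept8 023, 2197 bases of 3′ UTR in another septin gene (chr11:53541899-53544095, plus strand), held 0, 0.0261, 0.0766, 0 and 0% in scrambled and 0.725, 1.78, 0.379 and 1.57% in Ptbp1 shRNA libraries. Here the groups did not overlap, with a log2 relative usage of 5.78 (SE 1.03, adjusted p = 0.531 in edgeR), and this is the bin that limma called (log2 6.04, adjusted p = 0.0219). In control libraries it held 0.144, 0.435, 0.306 and 0.374%, and in overexpression libraries 0.342, 0.383, 0.182, 0.427 and 0.140%, with overlapping groups. Its gene was at 369 ± 61 CPM in scrambled and 365 ± 57.9 CPM in Ptbp1 shRNA libraries (SD, n = 5 and 4).

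Mycbp2 033, 140 coding bases in the gene of a ubiquitin ligase of axons (chr14:103155124-103155263), held 0.0585, 0.0977, 0.209, 0.0146 and 0% in scrambled and 4.28, 3.12, 0.0205 and 1.15% in Ptbp1 shRNA libraries (log2 relative usage 4.85, SE 1.34, adjusted p = 0.797 in edgeR). Ptbp1 shRNA replicate 3 lay among the scrambled libraries. Ewsr1 023, an end exon in the gene of an RNA-binding protein (chr11:5080418-5080688), held 1.88, 0.0513, 0.543, 0.319 and 9.91% in scrambled and 0.297, 0, 0.0918 and 0% in Ptbp1 shRNA libraries (log2 -4.60, SE 1.06, adjusted p = 0.949 in edgeR). The groups overlapped, and most of the difference came from scrambled replicate 5.

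Pde4b 020, an end exon in the gene of a cAMP phosphodiesterase (chr4:102542169-102542510), held 0, 0.276, 0, 0 and 0.0227% in scrambled and 0.125, 3.51, 0 and 0.114% in Ptbp1 shRNA libraries (log2 4.12, SE 1.17, adjusted p = 1 in edgeR). Here 1 Ptbp1 shRNA library was far above the rest of its group. At gene level none of the 5 genes was called in the silencing experiment by edgeR or DESeq2, beside 0 of 14656 genes in edgeR, and 1 had an unadjusted p under 0.05 with either tool.

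Of the 11 bins called on overexpression, 3 had enough counts to be tested in the silencing experiment, and none passed. Atp6v1h 007 held 0.122, 0.0771, 0.0489, 0.0939 and 1.59% in scrambled and 1.08, 0.355, 1.14 and 1.50% in Ptbp1 shRNA libraries (log2 relative usage 1.18, SE 0.99, adjusted p = 1 in edgeR). Scrambled replicate 5 lay above all 4 Ptbp1 shRNA libraries and the other 4 scrambled libraries below them, so the groups overlapped. Tpm1 021 held 0.393, 0, 0.234, 0.129 and 0% and 0, 0, 0.114 and 0.287% (log2 -0.69, SE 1.10, adjusted p = 1 in edgeR). Mical2 036 held 0.136, 0.124, 0.0392, 0.730 and 2.61% and 0.439, 0.522, 0.337 and 0.279% (log2 -0.15, SE 1.01, adjusted p = 1 in edgeR). In these bins too the groups overlapped.

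The other 8 called bins had too few counts to be tested in the silencing experiment. Klc1 027 and 029 were at 0 in all 4 Ptbp1 shRNA libraries, which allows shares of up to 0.0315 to 0.0765%, while scrambled replicate 2 held 0.202% of 027 and scrambled replicates 2 and 3 held 0.123 and 0.280% of 029. Klc1 030 held 0.441, 0, 0 and 0.535% in the Ptbp1 shRNA libraries, so that 2 of them were above every control library, and at most 0.202% in a scrambled one. In the Ptbp1 shRNA libraries the 3 neighbouring bins of this transcript end thus did not go together. Scrambled replicate 2 held reads of all 3, with the highest share of 030 in its group. Pkm 010 and Erc1 006 were at 0 in all 9 silencing libraries, which allows up to 0.0450 to 0.315% for Pkm and 0.0270 to 0.113% for Erc1. Camk2b 022 held at most 0.0261% in scrambled libraries and 0.0459, 0, 0.264 and 0% in Ptbp1 shRNA libraries. Snap91 009 held 0.115% in scrambled replicate 3 and at most 0.0093% in the other 8 libraries, and Sept6 002 held 2.60% in scrambled replicate 4 (148 counts), above every control library, at most 0.375% in the other scrambled libraries and 0 in the Ptbp1 shRNA libraries.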

How the data were processed

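Per the labels, RNA was obtained by TRAP, with 1 library per mouse, so p-values measure the spread between mice. The authors deposited counts, whole numbers that were not normalized, per gene for each experiment and per exon bin for each library. The submitters' processing notes name STAR 2.5.3a, HTSeq and mm10, with no role for each. The sources used here do not give the annotation release, strandedness or filters. The last 5 lines of each bin file are totals outside single bins and were left out; reads in no bin were 43.3 to 48.5% of the total of bin counts, ambiguous reads and reads in no bin.

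Shares are a bin's counts in percent of all bin counts of its gene; a read that covers several bins can count in each. Each experiment was fitted alone in R 4.3.3 with edgeR 4.0.16 (filterByExpr with a minimum count of 10, TMM, robust glmQLFit, diffSpliceDGE for bins, glmQLFTest for genes, Benjamini-Hochberg over all features at 0.05), tested first on simulated data. Alternatives were DESeq2 1.42.0 and its size factors, limma 3.58.1 diffSplice, other filters, a non-robust spread, other limits of the rule and leaving out each library. Log2 relative usage is a bin's log2 fold change relative to its gene. Coordinates come from GENCODE M21 transcripts with a number under 182000, used only where the number of bins equals that in the files (31293 of 34849 single-gene identifiers, 89.8%).

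The rare bins, gene lists and tests were chosen with earlier results of these data known. Because the control libraries chose the bins, values on overexpression are a description. Bins named are those called on overexpression, the 5 with the smallest p in silencing, the 2 on each side of the limit of 0.5% and the 3 with the highest scrambled share, with Ptbp1 and Ptbp2 at gene level. Of these, 2 bins are not reported here. The groups come from the treatment labels, and replicate numbers only name libraries.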

Additional observations from a re-analysis of the deposited data

Results flagged for a closer look

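In 68 checks of a named bin or a count of bins within a group of 4 or 5 libraries, 12 had 1 library far from the others. Chance would mark about 1 in 20 if values followed a normal spread. Some of these bins were at 0 in most libraries of a group, so that rate need not hold and nothing is read from the count. Of the scrambled libraries, replicate 5 held 1.59% of Atp6v1h 007 (others 0.0489 to 0.122%), 2.61% of Mical2 036 (others 0.0392 to 0.730%) and 9.91% of Ewsr1 023 (others 0.0513 to 1.88%). The same library had 2833 rare bins at 0 counts, where the others had 2086 to 2195. Scrambled replicate 2 held 0.202% of Klc1 027, which was at 0 in the other 4, and 0.276% of Pde4b 020 (others 0 to 0.0227%). Scrambled replicate 3 held 0.115% of Snap91 009 (others 0 to 0.0093%), and scrambled replicate 4 held 2.60% of Sept6 002 (others 0 to 0.375%).

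Of the Ptbp1 shRNA libraries, replicate 2 held 3.51% of Pde4b 020 (others 0 to 0.125%), and replicate 4 held 0.00187% of Snap91 009, a single count, where the others had 0. Of the control libraries, replicate 1 held 0.134% of Klc1 029 (others 0.0358 to 0.0440%) and 0.0802% of Snap91 009 (others 0.130 to 0.136%). No overexpression library stood apart in this way in these bins.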

How the results depend on the processing

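The 11 bins called on overexpression became 8 to 13 under the alternatives and 11 to 13 without 1 library, all higher. Of the 11, Erc1 006 was lost without control replicate 1 or 2, and Atp6v1h 007, Erc1 006 and Tpm1 021 were not tested at a minimum count of 30. The other 8 were called in each fit in which they were tested. Asph 015 was added with DESeq2 size factors, without a filter, at a minimum count of 30 and without overexpression replicate 2, 4 or 5. Srgap3 014 was added without a filter and without any 1 control library, Dnm1 015 at a minimum count of 30, with limma and without control replicate 2, and Mapk10 011 without control replicate 4. In silencing the count of 0 became 2 without a filter (Fkbp1a 012 and 013) and 1 with limma (Sept8 023, log2 6.04), and was 0 in every fit without 1 library. Among the 9 genes with a called bin and the 5 genes named in silencing, the counts called at gene level were 0 under all alternatives run. The 4879 rare bins under 0.5% in scrambled libraries became 4889 with pooled counts and 4863 to 4891 without 1 library. No direction was reversed. No paired analysis was possible because the replicate numbers only name libraries and each mouse is in 1 group. The search for motifs in 100 or 50 bases beside the bins was not run, and motifs were counted within the bins instead, a choice made after seeing the files. In silencing the common coefficient of variation between libraries was 105%, against 21.2% in overexpression, and 4110 of 5224 rare bins had too few counts to be tested.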

Other observations

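Some rare bins outside the naming rule, chosen after their values were seen, were called under some alternatives and not in the reported fit. Asph 015, in the gene of an aspartyl hydroxylase of the endoplasmic reticulum, had a mean share of 0.442% in control and 1.85% in overexpression libraries. Srgap3 014, in a gene for a regulator of Rac, was under the filter and had mean shares of 0.0241 and 0.224%. Mapk10 011, in the gene of the kinase JNK3, had 0.0106 and 0.0545%. In the silencing experiment Fkbp1a 012 and 013, in the gene of the immunophilin FKBP12, had mean shares of 0.00153 and 0.00953% in scrambled and 0.686 and 0.986% in Ptbp1 shRNA libraries, against 0.0321 and 0.115% in control and 0.0443 and 0.141% in overexpression libraries.

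Of the 3833 rare bins with coordinates, 109 (2.84%) overlapped an exon of a gene on the other strand and 253 (6.60%) lay at least in part within such a gene. For the other inner bins of the same genes the shares were 2.16% and 5.96%.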
